A study of Mus musculus with 8 samples.

Results

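The genes described here encode the chains of collagens and laminins, the nidogens Nid1 and Nid2, the heparan sulfate proteoglycans Hspg2 (perlecan) and Agrn (agrin), and Fn1 (fibronectin). They were taken by name from the array's annotation, using only probe sets that name 1 gene, with the probe set of the highest mean where a gene had several. This gave 59 of the 19938 genes measured: 11 fibrillar collagens, 22 basement membrane chains, 25 other collagens and fibronectin. Whole-kidney RNA of 8 female mice of mixed C57BL/6 and SV127 background was measured on Affymetrix arrays. In the labels 4 mice, here the arrays labelled mutant, carried Pax8-rtTA, LC-1 and floxed Vhl, and 4 were control littermates, here the arrays labelled control, whose alleles are not given in the sources used here. All mice were given doxycycline (0.2 mg/ml, with 5% sucrose) in their water from 3 weeks of age, for 2 weeks, followed by 1 week of plain water and harvest at 6 weeks. Pax8-rtTA with LC-1 directs doxycycline-dependent Cre to tubule epithelium, whereas the RNA came from the whole kidney, vessels and interstitium included.

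Basement membranes are thin sheets in which a laminin network, anchored to cell receptors, is joined by nidogens and perlecan to a collagen IV network. In the kidney they underlie every tubule and surround the vessels, and in the glomerulus a specialised sheet between endothelium and podocytes forms part of the filter. Fibrillar collagens such as collagen I and collagen III instead build the interstitial fibres that fibroblasts and mural cells lay down, and accumulate in fibrosis.

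The targeted gene and its known response were read before the matrix genes. Vhl read 8.25, 8.32, 8.46 and 8.33 on mutant arrays 1 to 4 and 8.01, 7.99, 7.96 and 8.22 on control arrays 1 to 4. Its log2 difference, arrays labelled mutant minus arrays labelled control, was 0.29 (SE 0.0724, limma adjusted p = 0.0386, and 0.0558 with the replicate number as a block). Vhl was thus not lower in the arrays labelled mutant, although the exons that its probes cover are not given in the sources used here. Of 9 hypoxia response genes read with it, 9 fell, among them Egln3 by 7.81-fold and Car9 by 7.35-fold. Both readings run against the labels, so each direction below is one between labelled groups and cannot be read as an effect of losing Vhl. The tubule markers Lrp2, Slc34a1 and Umod read 13.26 to 13.83 on the 8 arrays, near the top of a scale that reached 14.66. Mutant arrays 1 and 2 were together the highest of the 8 arrays for 16.1% of all genes, and results are given without each pair where that ends a call. The number of arrays limits the precision: the median SE of a log2 difference over all genes was 0.0718.

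Several core chains of basement membranes were lower in the arrays labelled mutant, and no fibrillar collagen passed the test on the lower side. Of the 22 basement membrane chains 7 fell and 0 rose: Hspg2, Nid1, Nid2, Col4a1, Col4a2, Lama4 and Lamc1, by 1.36-fold to 1.64-fold. Of the 11 fibrillar chains 0 fell and 1, Col27a1, rose by 1.19-fold. In the remaining 25 collagens 1, Col12a1, fell by 1.33-fold, and Fn1 did not pass. Calls are at a limma adjusted p under 0.05 over all genes, and the background is 7.24% of all genes called, 4.64% lower and 2.6% higher. Against it, 31.8% of the basement membrane chains were called lower, and 13.6% of all 59 members. The median log2 difference was -0.091 over the basement membrane chains, 0.079 over the fibrillar chains and 0.15 over the other collagens, beside 0.025 over all genes. These medians moved with the mutant arrays: without arrays 1 and 2 they were -0.12, -0.026 and 0.028, and without arrays 3 and 4 -0.14, 0.16 and 0.22, in the same order. Between the labelled groups 13 members did not overlap, 9 of them lower and 4 higher in the arrays labelled mutant. Over all genes 14.8% did not overlap, 8.2% lower and 6.58% higher. On the labelled control arrays the mean level was 9.25 over the basement membrane chains and 8.17 over the fibrillar chains. It was 7.80 over the other collagens and 8.01 over all genes. Whether the lower signal of the collagens hides falls was not tested. The difference between the classes was not tested. Endothelial markers fell in the same arrays, as given further on with their values, and in whole kidney fewer cells of a type and less RNA per cell cannot be told apart. The same 9 members passed with the replicate block, after quantile normalization and after centring each array on its median.

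**Figure D1:**
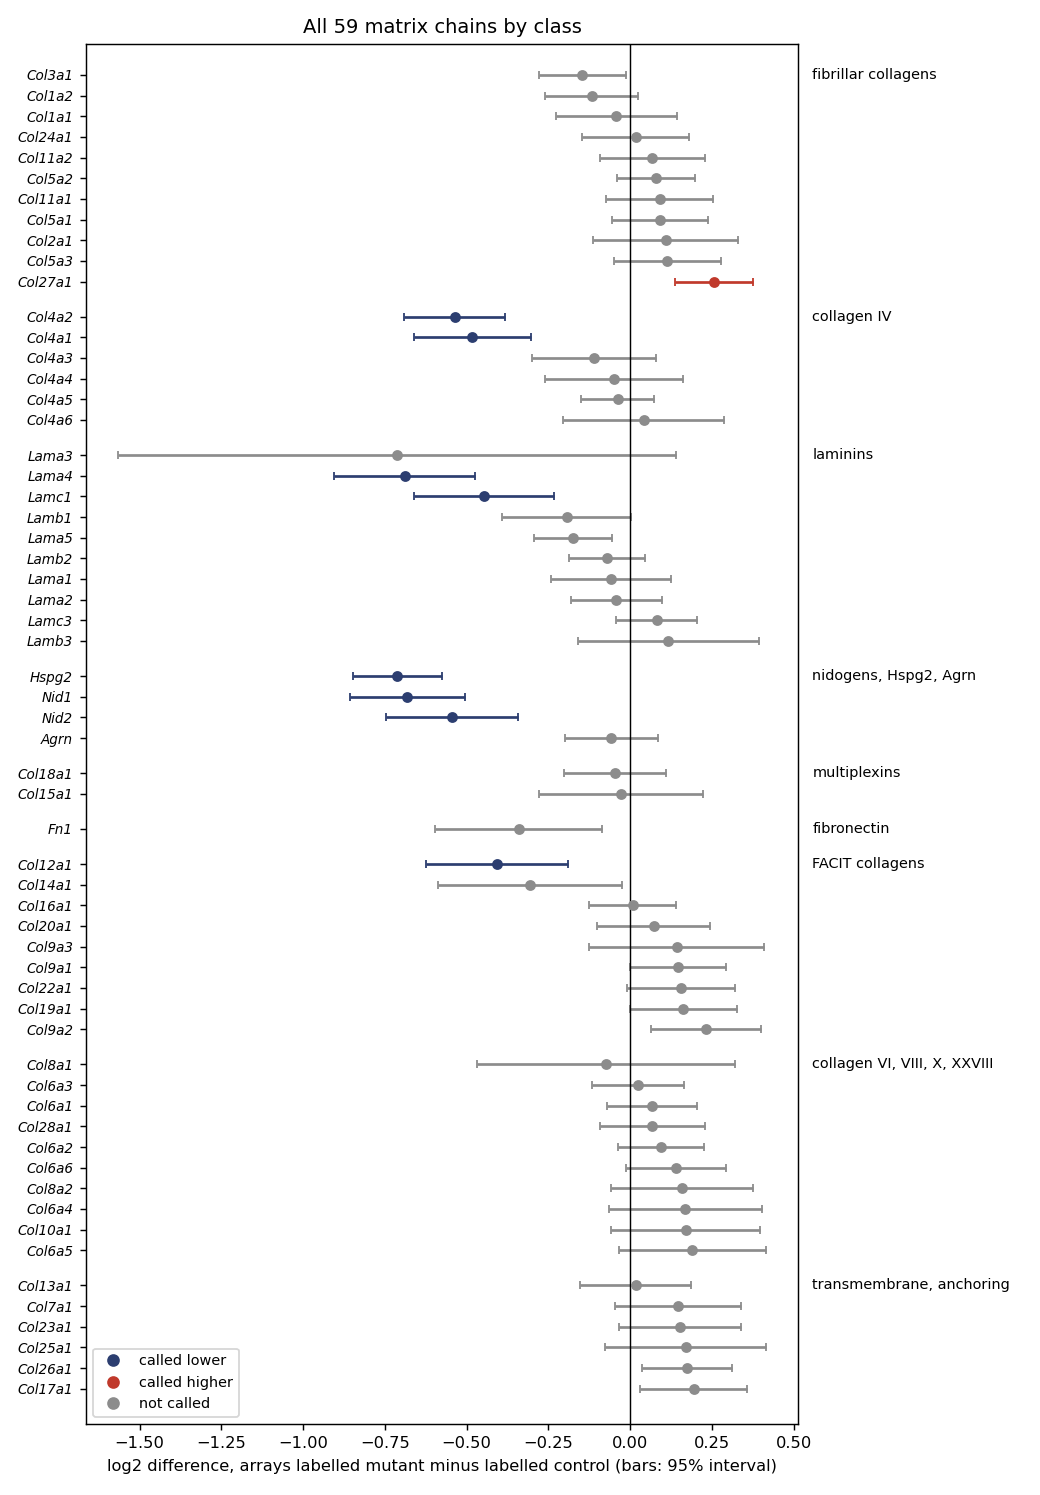
Log2 difference (arrays labelled mutant minus arrays labelled control, n = 4 each) of all 59 chains on the horizontal axis with its 95% limma interval, 1 row per gene, by class. The calls on the lower side lie in collagen IV, the laminins, the nidogens with Hspg2, and Col12a1, and the 1 call on the higher side is the fibrillar Col27a1.

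Sequences before the start sites are given for some chains that fell and some that did not pass. RefSeq sequences on GRCm38.p6 matched 43 of the 59 members and 5 of the 9 called ones. The 250 bases before the start are shown for Nid1 and Hspg2, which fell, and for Col3a1 and Col1a2, fibrillar chains that did not pass. Capitals mark ACGTG or GCGTG on either strand, the core letters of the hypoxia response element.
Nid1 (chr13:13437352-13437601, plus strand): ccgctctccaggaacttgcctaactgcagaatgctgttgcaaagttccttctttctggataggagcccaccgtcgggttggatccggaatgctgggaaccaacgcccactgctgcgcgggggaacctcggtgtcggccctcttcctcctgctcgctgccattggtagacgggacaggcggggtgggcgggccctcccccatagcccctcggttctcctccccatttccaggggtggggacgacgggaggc
Hspg2 (chr4:137468553-137468802, plus strand): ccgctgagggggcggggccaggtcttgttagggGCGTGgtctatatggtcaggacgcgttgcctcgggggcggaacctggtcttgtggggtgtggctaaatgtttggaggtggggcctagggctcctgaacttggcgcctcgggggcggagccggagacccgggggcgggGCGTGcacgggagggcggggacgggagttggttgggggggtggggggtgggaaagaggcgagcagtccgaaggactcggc
Col3a1 (chr1:45311288-45311537, plus strand): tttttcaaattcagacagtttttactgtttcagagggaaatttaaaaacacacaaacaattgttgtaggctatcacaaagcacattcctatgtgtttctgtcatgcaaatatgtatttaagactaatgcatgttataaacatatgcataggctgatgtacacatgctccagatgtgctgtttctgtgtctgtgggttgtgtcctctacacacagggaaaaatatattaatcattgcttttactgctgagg
Col1a2 (chr6:4505368-4505617, plus strand): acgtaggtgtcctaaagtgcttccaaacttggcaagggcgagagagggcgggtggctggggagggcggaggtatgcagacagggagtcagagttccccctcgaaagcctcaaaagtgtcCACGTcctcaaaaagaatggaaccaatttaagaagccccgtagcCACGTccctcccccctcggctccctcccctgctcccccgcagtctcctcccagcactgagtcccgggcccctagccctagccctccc
Within its window Hspg2 held 2 such matches and Col1a2 2, whereas Nid1 and Col3a1 held 0. Col4a1 and Col4a2 are read in opposite directions, and their annotated 5′ ends overlap by 22 bases, so that the window before each start lies within the other gene. Both of these windows, not printed here, held GCGTG. Over all members with an entry, 15 of 48 promoters held ACGTG or GCGTG (31.2%), beside 38.6% of all 32851 promoters of this length. The GC box GGGCGG, searched the same way, was in 58.3% of the members' promoters and 32.7% of all, CCAAT in 31.2% and 33.8%, and TATAAA in 10.4% and 12.4%. The G and C content of the printed windows was 70% for Hspg2, 64.4% for Nid1, 62% for Col1a2 and 35.2% for Col3a1. A match of letters describes the window and shows no binding.

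Among the linkers of the sheet, Hspg2 had the smallest adjusted p of all members. Hspg2, the large proteoglycan that binds laminin, nidogen and growth factors, read 9.75, 9.84, 9.72 and 9.78 on mutant arrays 1 to 4. On control arrays 1 to 4 it read 10.52, 10.53, 10.55 and 10.34. All 4 labelled mutant arrays lay below all 4 labelled control arrays, by a log2 difference of -0.71 (SE 0.0608, limma adjusted p = 1.73e-04). Nid1, the nidogen found in nearly every basement membrane, read 10.06, 10.11, 10.09 and 10.14 on the mutant arrays and 10.74, 10.80, 10.99 and 10.60 on the control arrays. The groups did not overlap, and the log2 difference was -0.68 (SE 0.0784, limma adjusted p = 9.87e-04). Nid2, its paralog, which is prominent in vessel walls, read 8.59, 8.56, 8.67 and 8.60 against 9.19, 9.28, 9.26 and 8.86. Control array 4, the lowest control, still lay above the highest mutant array, and the log2 difference was -0.54 (SE 0.0901, limma adjusted p = 0.00586). Without mutant arrays 1 and 2 Nid2 just missed the threshold (limma adjusted p = 0.0512, within 4.22e-04 to 0.0512 over all alternatives). Agrn, the heparan sulfate proteoglycan typical of the glomerular basement membrane, read 10.49 to 10.67 against 10.49 to 10.71. These ranges overlapped, with a log2 difference of -0.057 and a 95% interval of -0.20 to 0.084 (limma adjusted p = 0.636).

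Of the 6 collagen IV chains 2 fell. Col4a1 and Col4a2 encode the chains of the network present in nearly all basement membranes, and Col4a3, Col4a4 and Col4a5 those of the network that the mature glomerular basement membrane and some tubules use. Col4a1 read 9.22, 9.19, 9.22 and 9.16 on mutant arrays 1 to 4 and 9.76, 9.70, 9.83 and 9.44 on control arrays 1 to 4, with no overlap. Col4a2 read 9.37, 9.27, 9.38 and 9.41 against 9.89, 9.93, 10.03 and 9.73, also with no overlap. Both fell, Col4a1 by 1.40-fold (log2 difference -0.48, SE 0.0801, limma adjusted p = 0.00592) and Col4a2 by 1.45-fold (-0.54, SE 0.0691, limma adjusted p = 0.00184). Col4a3 read 9.87, 9.96, 9.96 and 10.16 on the mutant arrays and 10.08, 10.23, 10.19 and 9.91 on the control arrays. Its groups overlapped, with a log2 difference of -0.11 and a 95% interval of -0.30 to 0.079 (limma adjusted p = 0.481). For Col4a4 the log2 difference was -0.050 (-0.26 to 0.16), for Col4a5 -0.038 (-0.15 to 0.075) and for Col4a6, a chain of Bowman's capsule, 0.042 (-0.20 to 0.29), and these 3 did not pass (limma adjusted p = 0.794, 0.697 and 0.855). The sign for Col4a4 turned without mutant array 1 and that for Col4a6 without control array 2.

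Laminins are trimers of 1 alpha, 1 beta and 1 gamma chain, and 2 of the 10 measured chains fell. Lama4, the alpha chain of vessel basement membranes, read 7.42, 7.53, 7.64 and 7.53 on mutant arrays 1 to 4. On control arrays 1 to 4 it read 8.17, 8.28, 8.46 and 7.97, so that every control array lay above every mutant array. Its log2 difference was -0.69 (SE 0.0969, limma adjusted p = 0.00287), a 1.61-fold fall. Lamc1, the gamma chain shared by most laminins of the kidney, read 9.17, 9.33, 9.42 and 9.38 against 9.77, 9.88, 9.93 and 9.50 and fell by 1.36-fold (log2 difference -0.45, SE 0.096, limma adjusted p = 0.0205). The groups did not overlap, but the call for Lamc1 rested on single arrays: leaving out mutant array 2, or any of control arrays 1, 2 and 3, gave 0.0538 to 0.0669 by limma after adjustment, and it was lost without mutant arrays 1 and 2 (0.126).

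The other chains of these trimers did not pass. Lama5, the alpha chain of the mature glomerular and many tubular basement membranes, read 9.62 to 9.70 on the mutant arrays and 9.76 to 9.93 on the control arrays. These ranges did not overlap, yet the log2 difference of -0.18 (SE 0.0533) had a limma adjusted p of 0.0839, and 0.0494 when only the upper 60% of probe sets by mean were tested. Lamb1, a partner of Lama4 and Lamc1 in vessels, read 10.26, 10.22, 10.16 and 10.05 against 10.34, 10.56, 10.42 and 10.15. Its groups overlapped through control array 4, and the log2 difference was -0.19 (95% interval -0.39 to 0.0016, limma adjusted p = 0.232). Lamb2, the beta chain of the glomerular filter, differed by -0.072 (-0.19 to 0.044), Lama1, of tubule basement membranes, by -0.059 (-0.24 to 0.12), and Lama2 by -0.042 on the log2 scale (limma adjusted p = 0.454, 0.708 and 0.729). Lamb3 and Lamc3 had log2 differences of 0.12 and 0.082.

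Lama3, an alpha chain of epithelial anchoring laminins, had the widest spread within a labelled group (SD 0.971, n = 4). It read 7.48 and 7.53 on mutant arrays 1 and 2, 9.10 and 9.26 on mutant arrays 3 and 4, and 9.14, 8.93, 9.09 and 9.06 on control arrays 1 to 4. Mutant array 4 was the highest of the 8, mutant array 3 lay within the controls, and mutant arrays 1 and 2 lay far below both. Whether the Lama3 probes bind alike to the alleles of this mixed strain background was not tested. The group difference of -0.71 (SE 0.382) did not pass (limma adjusted p = 0.315). It was 0.13 without mutant arrays 1 and 2 (limma adjusted p = 0.513) and -1.55 without mutant arrays 3 and 4 (9.72e-05).

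**Figure D2:**
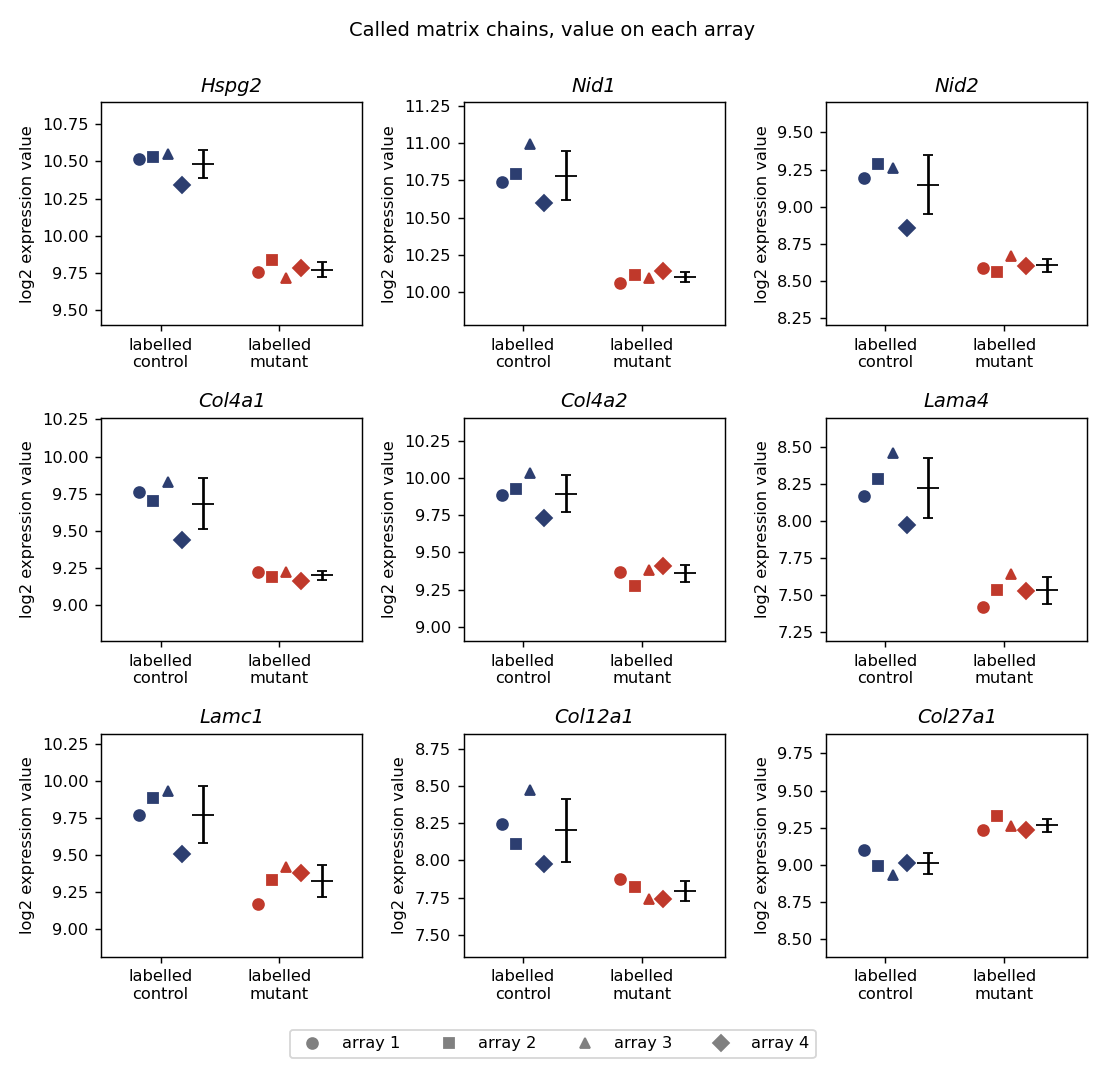
Log2 expression value (vertical axis) of the 9 called chains on each array by labelled group, with each group's mean ± SD (n = 4) in black; the marker shape gives the array number. In the 8 chains that fell, the 4 labelled mutant arrays lie below the 4 labelled control arrays and control array 4 is the lowest control.

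Pairs of chains with alternative roles were compared within each array, so that a shift common to both cancels. The Col4a3 value minus the Col4a1 value was 0.65, 0.77, 0.74 and 1.0 on mutant arrays 1 to 4 and 0.31, 0.53, 0.36 and 0.47 on control arrays 1 to 4, with no overlap. The gap between these chains was thus wider by 0.37 (SE 0.0901) in the arrays labelled mutant. Lama5 minus Lama4 was wider by 0.51 (SE 0.0825) with no overlap of the groups. Col1a1 lay below Col4a1 in both groups, at -0.36 ± 0.107 on the mutant arrays against -0.80 ± 0.198 on the control arrays (SD, n = 4 each), so this gap was narrower on the mutant arrays by 0.44 (SE 0.113), again with no overlap. Each of these 3 pairs had an exact two-sided permutation p of 0.0286, the smallest that 4 against 4 arrays allow. Adjusted over the 6 pairs compared, this exact p was 0.0571, so none passed after adjustment. With 3 pairs at the smallest p the adjusted value could not be lower, so the miss is no result about them. Each of the 3 also sets a chain called lower, Col4a1 or Lama4, against a chain not called. Their separation therefore adds no support to those calls. The other three pairs overlapped between groups: Lamb2 minus Lamb1 differed by 0.12 (SE 0.101, exact permutation p = 0.286, adjusted 0.343), Nid2 minus Nid1 by 0.14 (SE 0.0667, exact permutation p = 0.114, adjusted 0.171) and Col18a1 minus Col15a1 by -0.018 (SE 0.124, exact permutation p = 0.914, adjusted 0.914).

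**Figure D3:**
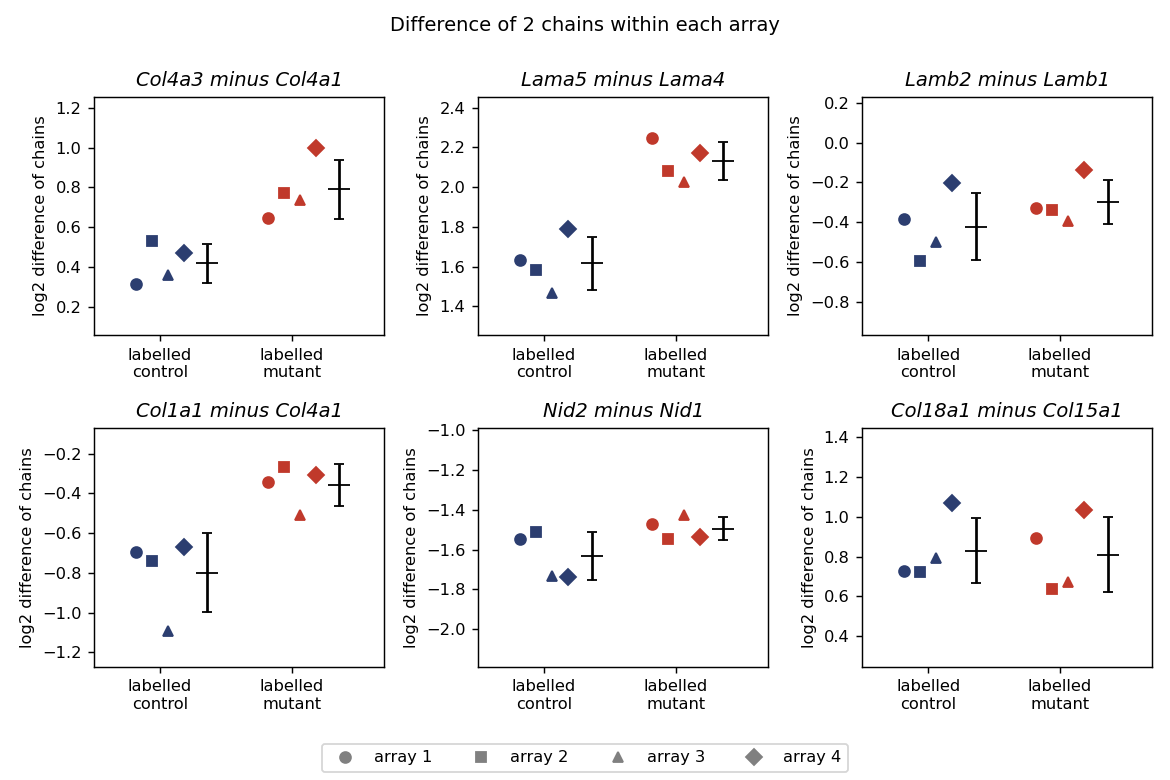
Difference of 2 chains within each array (vertical axis, log2) for the 6 pairs by labelled group, with mean ± SD (n = 4) in black and the array number as the marker shape. The groups separate for Col4a3 minus Col4a1, Lama5 minus Lama4 and Col1a1 minus Col4a1 and overlap for the other three.

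The fibrillar chains gave no fall that passed the test. Col1a1, the main chain of collagen I, read 8.88, 8.92, 8.71 and 8.86 on mutant arrays 1 to 4 and 9.07, 8.96, 8.74 and 8.77 on control arrays 1 to 4. The groups overlapped throughout, and the log2 difference was -0.042 with a 95% interval of -0.23 to 0.14 (limma adjusted p = 0.801); its sign turned without mutant array 3 or control array 1. Col1a2, its partner chain, read 9.03 to 9.17 against 9.13 to 9.34, a log2 difference of -0.12 (-0.26 to 0.023, limma adjusted p = 0.316). Col3a1, of the collagen III fibres mixed with collagen I in the interstitium, read 8.56, 8.62, 8.51 and 8.54 against 8.78, 8.64, 8.80 and 8.61. Only mutant array 2 rose above the lowest control array, and the log2 difference of -0.15 (SE 0.0596) did not pass (limma adjusted p = 0.189, unadjusted p = 0.0342). At an unadjusted limma p under 0.05 that was the 1 fibrillar chain on the lower side, where 4352 of all 19938 genes were under this threshold in either direction. The 95% intervals exclude a fall as large as that of Col4a1 (-0.48) for Col1a1, Col1a2 and Col3a1.

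Col27a1, a fibrillar collagen best known from cartilage, was the only member that rose. It read 9.24, 9.33, 9.26 and 9.23 on the mutant arrays and 9.10, 8.995, 8.93 and 9.01 on the control arrays, and the groups did not overlap. The log2 difference was 0.26 (SE 0.0537, limma adjusted p = 0.0186). The rise did not pass when mutant array 2, control array 2 or control array 3 was left out (adjusted p by limma 0.0581 to 0.0598), without mutant arrays 1 and 2 (0.0907) or without mutant arrays 3 and 4 (0.0542). The other seven fibrillar chains, Col2a1, Col5a1, Col5a2, Col5a3, Col11a1, Col11a2 and Col24a1, had log2 differences of 0.017 to 0.11, and of -0.095 to 0.071, 5 of them below 0, without mutant arrays 1 and 2. In 6 of the 11 fibrillar chains mutant arrays 1 and 2 were the highest of the 8 arrays, and the class median of 0.079 became -0.026 without them.

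Of the 25 collagens that decorate fibrils, form other networks or span membranes, 1 fell and 0 rose, with 6 at an unadjusted limma p under 0.05. Over all genes 4352 of 19938 were under this unadjusted threshold, so the 6 are no result about these collagens. Nor is the 1 call, since 4% of these collagens were called lower, beside 4.64% of all genes. Col12a1, which binds along the surface of collagen I fibrils, read 7.88, 7.82, 7.74 and 7.74 on mutant arrays 1 to 4 and 8.25, 8.11, 8.47 and 7.98 on control arrays 1 to 4. The groups did not overlap, and Col12a1 fell by 1.33-fold (log2 difference -0.41, SE 0.0973, limma adjusted p = 0.0333). Leaving out any of mutant arrays 2, 3 and 4 or control arrays 1, 2 and 3 ended the call (adjusted p by limma 0.0543 to 0.0875), as did the fits without mutant arrays 1 and 2 (0.0861) or 3 and 4 (0.116). Its relative Col14a1 read 9.27 to 9.71 against 9.46 to 9.995, with a log2 difference of -0.31 (SE 0.126) that did not pass (limma adjusted p = 0.195). The collagen VI chains Col6a1, Col6a2 and Col6a3, which form beaded filaments around cells, had log2 differences of 0.067, 0.093 and 0.023 (limma adjusted p = 0.565, 0.389 and 0.858). Col6a5 had the largest of its class, 0.19 (SE 0.101, 0.311), and Col17a1, a transmembrane collagen of hemidesmosomes, 0.19 (SE 0.0732, 0.157); neither passed. Col9a2, of a collagen that coats cartilage fibrils, read 8.27 to 8.61 against 8.14 to 8.22 without overlap, and its log2 difference of 0.23 (SE 0.0752) did not pass (limma adjusted p = 0.101). Without mutant arrays 3 and 4 Col9a2, Col17a1 and Col8a2 passed on the higher side (limma adjusted p = 0.0256, 0.0487 and 0.0196). Col8a1, a network collagen of vessel walls, read 7.99 and 7.82 on mutant arrays 1 and 2, 8.502 and 8.62 on mutant arrays 3 and 4, and 8.12 to 8.58 on the control arrays, a log2 difference of -0.073 (limma adjusted p = 0.839) that became 0.26 without mutant arrays 1 and 2. Col15a1 and Col18a1, which sit at the outer face of basement membranes and whose C-termini give restin and endostatin, had log2 differences of -0.028 (-0.28 to 0.22) and -0.046 (-0.20 to 0.11). The sign for Col15a1 turned after quantile normalization and both signs turned without mutant arrays 3 and 4.

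Fn1, the fibronectin gene, read 10.37, 10.68, 10.55 and 10.66 on mutant arrays 1 to 4 and 11.11, 10.77, 11.10 and 10.65 on control arrays 1 to 4. Mutant arrays 2 and 4 lay above control array 4, so the groups overlapped. The log2 difference was -0.34 (SE 0.115, limma adjusted p = 0.115), and the gene passed only without control array 4 (0.0467, with 0.313 the highest over the alternatives).

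**Figure D4:**
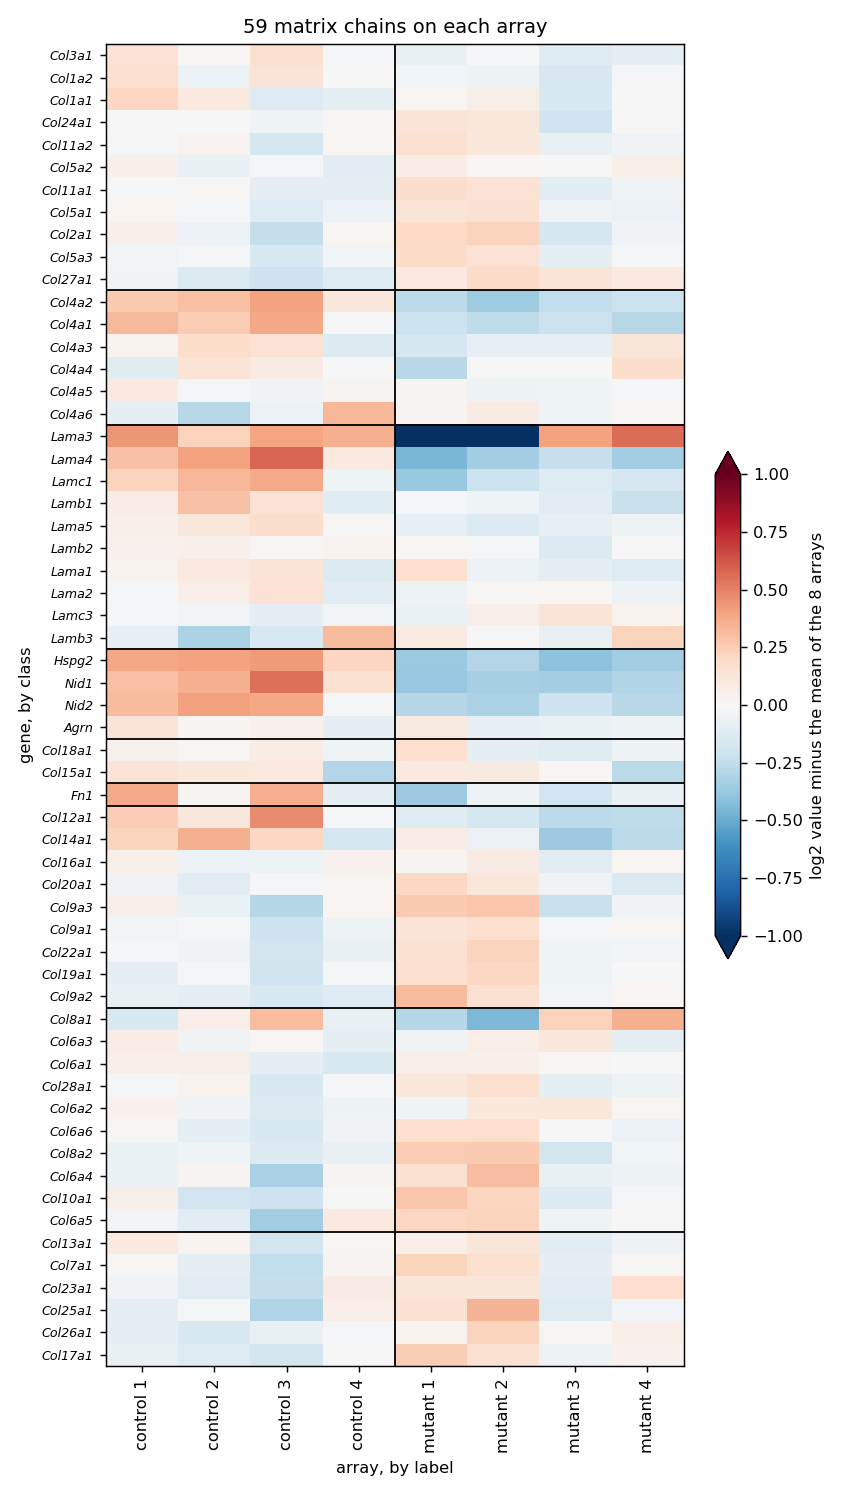
Log2 value of each of the 59 chains (rows, by class) on each array (columns, by label) minus the mean of the 8 arrays; red is above and blue below that mean, and values beyond 1 are drawn at the end of the scale. The 7 basement membrane chains that fell are blue on the 4 labelled mutant arrays, Lama3 is blue on mutant arrays 1 and 2 only, and many weakly changing collagens are red on those same arrays.

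Other genes of the matrix were read from lists of receptors, further basement membrane components and collagen processing. Among 21 matrix receptors 3 fell and 0 rose: Itga5, the alpha chain of the fibronectin receptor, by 1.61-fold (8.30 ± 0.112 against 8.98 ± 0.0927 (SD, n = 4 each), limma adjusted p = 5.71e-04), Itgav by 1.39-fold (limma adjusted p = 0.00124) and its partner Itgb3 by 1.25-fold (0.0219). Of the 21 receptors 17 had log2 differences below 0, beside 8349 of all 19938 genes. Among laminin receptors, Itga6, Dag1 and Itga7 had log2 differences of -0.038, -0.0035 and 0.029. Those of Itga3 and Bcam were -0.26 and -0.30 (limma adjusted p = 0.203 and 0.280), and none of these 5 passed. Of 16 further basement membrane genes 5 fell and 0 rose. They were Sparc, a collagen-binding protein (1.52-fold), Papln, papilin (1.42-fold), Pxdn, the peroxidase that crosslinks collagen IV (1.34-fold), Frem2 (1.28-fold) and Fbln2 (1.25-fold), with limma adjusted p from 0.00106 to 0.0199. Over these 16 genes 10 log2 differences lay below 0 and 6 above. Npnt and Tinag, matrix genes of tubules and among those above 0, had log2 differences of 0.012 and 0.071 and did not pass. Of 14 genes for collagen folding, processing and turnover 0 fell and 2 rose, Pcolce (1.43-fold, limma adjusted p = 0.00401) and Pcolce2 (1.45-fold, 0.0418), both enhancers of procollagen C-propeptide cleavage. Bmp1, a procollagen C-proteinase, passed on the lower side only with the replicate block (log2 difference -0.25, limma adjusted p = 0.0559 without and 0.0485 with it). The Pcolce2 groups overlapped, and among the fits without 1 array it passed only when mutant array 4 or control array 1 was dropped (highest limma adjusted p 0.116). Itgb3 passed only when mutant array 1, control array 1 or control array 4 was dropped (highest 0.0700), and Frem2 failed to pass when mutant array 2 or any of control arrays 1, 2 and 3 was dropped (highest 0.0601).

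Vessel genes moved with the basement membrane chains. Of 15 endothelial markers 14 fell and 0 rose, with Kdr (1.86-fold) and Cdh5 (1.79-fold) the largest, a median log2 difference of -0.64 and only Vwf not passing (log2 difference 0.022). The mean level of the list was 9.70 to 9.80 on the labelled mutant arrays and 10.31 to 10.42 on the labelled control arrays. Of 11 mural and mesangial markers 6 fell (list mean 8.91 to 9.16 against 9.33 to 9.55), led by Cnn1 (1.81-fold) and Acta2 (1.62-fold). Of 10 fibroblast markers 3 fell, Lum (2.06-fold), Lox (1.67-fold) and Dcn (1.55-fold, limma adjusted p = 0.00827). The fibroblast list mean was 8.03 to 8.21 against 8.28 to 8.45. Over the 10 fibroblast markers 6 log2 differences lay below 0 and 4 above. Of 8 podocyte markers 2 fell, Nes and Podxl (1.29-fold and 1.22-fold). Over the 8 markers 5 log2 differences lay below 0 and 3 above, with a median of -0.038. Nphs1 and Wt1, among those above 0, had log2 differences of 0.17 and 0.10 that did not pass. With the replicate block the fibroblast marker Mfap5 also passed on the lower side (log2 difference -0.35, limma adjusted p = 0.0864 without and 0.0366 with the block) and the podocyte marker Plce1 on the higher side (0.24, 0.0714 and 0.0449). Lox passed in only 1 of the 8 fits without 1 array, that without mutant array 4 (limma adjusted p up to 0.0896 in the other seven). The part of these cells in the fall of the matrix chains was not tested.

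Each array's mean of the endothelial markers was also subtracted from the chains. That mean itself differed by -0.60, so on this scale every chain's difference is shifted up by the same amount by construction, and the values below are a description that bears on no cause. Relative to it, the log2 difference was -0.11 for Hspg2, -0.088 for Lama4 and -0.080 for Nid1. It was 0.056 for Nid2, 0.064 for Col4a2, 0.12 for Col4a1, 0.15 for Lamc1 and 0.19 for Col12a1. On this scale the 8 chains that fell overlapped between the labelled groups. The share of all genes that overlap on it was not computed, so the overlap is no result about these chains. Control array 4 was the lowest control for 8 of the 8 chains that fell. The share of all genes for which this holds was not computed, so the count is no result about these chains. Control array 4 was also the lowest control for the endothelial list mean (10.31, with 10.32 on control array 1). The same held for the mural and mesangial (9.33), fibroblast (8.28), podocyte, proximal tubule and leukocyte list means. For the distal and collecting duct list it did not hold (11.18, with 11.04 on control array 1). How these levels relate to the chains was not tested. No tubule marker was called lower. Of 10 proximal tubule markers 0 fell and 2 rose, Aqp1 (1.22-fold) and Slc22a8 (1.23-fold). Of 10 distal and collecting duct markers 0 fell and Calb1 rose (1.45-fold). In each of these lists 3 log2 differences lay below 0 and 7 above. The lowest was -0.41 in the proximal list and -0.25 in the distal and collecting duct list. Slc22a8 passed only without mutant array 1 or control array 2 among the 8 fits without 1 array (limma adjusted p up to 0.121). By limma 0 of 9 leukocyte markers passed in either direction, with 2 at an unadjusted p under 0.05, beside 4352 of all 19938 genes. With the replicate block 2 of the 9 passed on the lower side, Itgam (log2 difference -0.42, limma adjusted p = 0.053 without and 0.0148 with the block) and Cd68 (-0.24, 0.143 and 0.0333). The leukocyte list mean was 8.47 and 8.40 on mutant arrays 1 and 2, 7.93 and 7.89 on mutant arrays 3 and 4 and 8.17 to 8.43 on the control arrays. With the block the distal markers Slc12a1 (0.25, 0.0588 and 0.0456) and Slc12a3 (0.24, 0.147 and 0.0341) also passed, on the higher side.

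**Figure D5:**
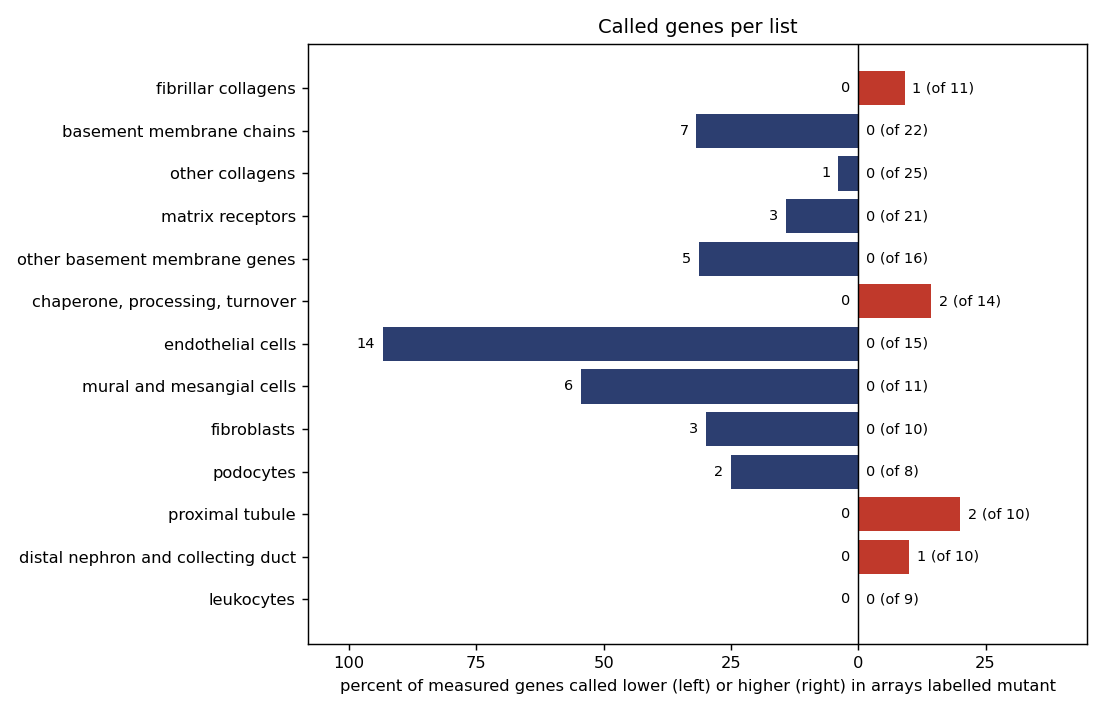
Percent of the measured genes of each list called lower (left, blue) or higher (right, red) in the arrays labelled mutant; the numbers beside the bars are gene counts. Endothelial markers have the highest share called lower (14 of 15), basement membrane chains have 7 of 22, and fibrillar collagens have 0 of 11.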

How the data were processed

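RNA was extracted with TRIzol, purified on RNeasy columns and biotin-labelled for Affymetrix arrays, per the labels' protocols. The authors deposited log2 values for 35556 probe sets on 8 arrays, ranging from 1.92 to 14.66. Per the submitters' processing notes limma was used, with no version or role named. The background correction, summarization, normalization and genome build are not given in the sources used here, so no probe set could be called absent.

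The platform annotation named 1 gene for 21789 probe sets, several for 1621 and none for 12146. Symbols were those of the platform. All 19938 genes were fitted unfiltered with limma 3.58.1 in R 4.3.3 (lmFit, eBayes, labelled group as the only factor, two-sided, Benjamini-Hochberg over all genes, called under 0.05). A fold is 2 to the size of the log2 difference. Pairs of chains were compared by exact permutation. The fit was tested on simulated data.

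Array numbers 1 to 4 occur in both groups, and the labels do not say what a number marks. Deviations from the group mean correlated between same-numbered arrays at 0.138, 0.153, 0.295 and 0.175. Between differently numbered arrays the correlations ran from -0.193 to 0.111, the highest being mutant array 2 with control array 1. By these data the numbers may mark pairs, which the labels do not state. The values printed come from the fit without this block and take no account of such pairs. The calls that the block changed among the members, the further lists and Vhl are given. Alternatives were quantile normalization, median centring, the upper 60% of probe sets, trend and robust eBayes, array weights, the block, probe set means, current GRCm38.p6 symbols, an adjusted p under 0.01, and leaving out arrays singly or mutant arrays 1 and 2 or 3 and 4 together. The subtraction of the endothelial mean was added after the data were seen.

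Members, gene lists and pairs were chosen with earlier results of these data known. The text names every called member, the largest difference in each class, the chains of the pairs, the main chains of the kidney's basement membranes and of collagens I and III, Fn1, and 2 called genes per further list. Npnt, Tinag, Itga6, Dag1, Vwf, Nphs1, Wt1, Frem2, Fbln2, Pxdn, Itgb3, the genes passing only with the block, the other collagens and laminins with values and the tubule markers of the tissue check were chosen after their values were seen. So were Itga3, Itga7, Bcam and Dcn.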

Additional observations from a re-analysis of the deposited data

Results flagged for a closer look

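In 4 of the 118 groups of 4 arrays examined, 1 array lay far from the others for its chain. Chance alone gives about 1 in 20, so these flags are no more than chance gives and are only listed here. Col15a1 read 8.203 on control array 4 and 8.594 to 8.630 on the other controls. Hspg2 read 10.34 on control array 4, against 10.52 to 10.55, and that array still lay above every mutant array. Col5a3 read 7.40 on control array 3, where the other controls read 7.526 to 7.529. Lamc3 read 8.52 on the same array, against 8.58 to 8.59.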

How the results depend on the processing

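Col4a1, Col4a2, Hspg2, Lama4 and Nid1 passed under all 18 refits at the same threshold, and Nid2 in all but that without mutant arrays 1 and 2. Leaving out 1 array gave 6 to 10 members called and 0 to 1 fibrillar chains. Without mutant arrays 1 and 2 the count was 5 members, 5 of them lower, and 0 fibrillar chains passed without mutant arrays 1 and 2, without 3 and 4, or at an adjusted p under 0.01. Without mutant arrays 3 and 4 the count was 11 members, 7 of them called with all arrays. The rest were Lama3 on the lower side and Col8a2, Col9a2 and Col17a1 on the higher side. Over all genes, 1443 passed (518 higher, 925 lower). Leaving out 1 array gave 902 to 1369, with 263 to 488 higher, and 1 array decided the size by over 1.5 times for mutant array 2 (917), control array 2 (904) and control array 3 (902). Without mutant arrays 1 and 2, 316 were higher, and at an adjusted p under 0.01 602 passed (148 higher, 454 lower). At that threshold 25 of the 124 receptor, matrix and cell marker genes passed, beside 38 at 0.05. The replicate block changed no member's call but added 7 genes of the further lists (Bmp1, Cd68, Itgam, Mfap5, Plce1, Slc12a1 and Slc12a3), and with it 1658 genes passed. Vhl did not pass with the replicate block (log2 difference 0.29), without mutant arrays 1 and 2 (0.35) or 3 and 4 (0.23), or in 6 of the 8 fits without 1 array (0.25 to 0.35). Among chains that did not pass, signs turned for Col15a1 with quantile normalization (0.0078), with mutant arrays 3 and 4 left out (0.080) and with 1 array left out (-0.13 to 0.056, with 0.056 without mutant array 4, 0.013, 0.0028 and 0.00099 without control arrays 1, 2 and 3). Over all 59 members signs turned for 14 without mutant arrays 1 and 2, 4 without mutant arrays 3 and 4 and 1 with quantile normalization, 0 of them called. Among those named they turned for Col18a1 (0.018), Col1a1 (0.017) and Lama1 (0.024) without mutant arrays 3 and 4, for Col4a4 (0.063), Lama3 (0.13), Col8a1 (0.26) and 5 fibrillar chains (Col2a1, Col5a1, Col11a1, Col11a2 and Col24a1) without mutant arrays 1 and 2, for Col1a1 without 1 array (-0.091 to 0.020, above 0 without mutant array 3 at 0.0017 or control array 1 at 0.020), for Col4a4 (-0.12 to 0.034, above 0 without mutant array 1) and for Col4a6 (-0.043 to 0.16, below 0 without control array 2). Against the endothelial mean the signs of Col12a1 (0.19), Lamc1 (0.15), Col4a1 (0.12), Col4a2 (0.064) and Nid2 (0.056) turned. Apart from the fits with fewer arrays or a stricter threshold, the cause of these shifts was not tested. Of the 6 pair differences, 5 kept their direction in each refit and Col18a1 minus Col15a1 ranged from -0.093 to 0.062. With the replicate block no exact p for the pairs can go below 0.125, before or after adjustment. No pair could therefore pass with the block, and this is no result about the pairs. No p was computed with arrays left out. The share of called genes that were higher was 35.9%, and 28.7% to 44.3% over the refits.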

Other observations

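These patterns were noticed after the values were seen. Lama3 was the only gene among all 19938 genes whose values on mutant arrays 1 and 2 both lay more than 1 log2 unit below every other array, with a gap of 1.40 to the nearest (8.93 to 9.26 on the other six).

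The collagens outside basement membranes shared another pattern. Mutant arrays 1 and 2 were the highest of the 8 arrays in 15 of the 25 other collagens, 6 of the 11 fibrillar chains and 0 of the 22 basement membrane chains. The leukocyte markers split on the same arrays, with a list mean of 8.47 and 8.40 on mutant arrays 1 and 2 and 7.93 and 7.89 on mutant arrays 3 and 4, and their median log2 difference was -0.36 without the first pair and 0.16 without the second. Their part in the pattern was not tested. Over all genes the pattern held for 16.1%. The median log2 difference of the other collagens was 0.15 with all arrays, 0.028 without mutant arrays 1 and 2 and 0.14 after quantile normalization.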
